A study of Caenorhabditis elegans with 6 samples.

Results

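The small RNAs recovered with the nuclear Argonaute NRDE-3 were compared with total small RNA of the same Caenorhabditis elegans strain at the L3 larval stage. The strain carried the susi-2 allele ust49 together with eri-1(mg366) and GFP::NRDE-3. This comparison rests on 2 of the series' 6 libraries, chosen by their labels: the NRDE-3 immunoprecipitate (IP) of the susi-2 strain and the total small RNA of the susi-2 strain, 1 library each. The same pair of libraries from a strain with the susi-3 allele ust51 and from a control without a susi allele is set beside it. All 3 strains, the control included, carried eri-1(mg366) and GFP::NRDE-3. Animals were kept at 20 °C before the experiment, and the libraries are labelled 15 °C with E. coli OP50 as food. For the IP, whole-animal lysate was taken up on anti-FLAG M2 beads and FLAG::GFP::NRDE-3 was eluted with peptide. Before cloning, IP and total RNA alike went through phosphatase (CIAP) and T4 polynucleotide kinase with 1 mM ATP, which lets RNAs with a 5′ triphosphate enter the library, and fragments of 17 to 30 nt were sequenced. An IP from animals without tagged NRDE-3 was not analysed here, so RNA bound by NRDE-3 and RNA carried over with the beads cannot be told apart. With 1 library per group no test between replicates exists, and every interval given is a 95% interval for counting error only. The intervals take each count as a separate read. Where the same read may be counted on several copies or transcript rows, they would be too narrow.

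NRDE-3 is a somatic Argonaute that binds secondary siRNAs, 22-nucleotide RNAs that begin with G and are made antisense to a target transcript by RNA-dependent RNA polymerases. It carries them into the nucleus, where the nuclear RNAi machinery silences the target. ERI-1 is a conserved exonuclease that acts in 5.8S rRNA processing and in making the primary siRNAs of the ERGO-1 Argonaute, and NRDE-3 lacks much of its usual cargo in eri-1 mutants. Antisense ribosomal siRNAs, risiRNAs, are small RNAs complementary to rRNA that arise when rRNA is faulty, and susi genes were named from screens for animals in which they accumulate.

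The IP library of the susi-2 strain held 9122066 counts and the total library 10471072, and the 4 other libraries held between 9507040 and 10755494. Antisense counts were 23.2% of the IP (interval 23.2 to 23.3) and 17.6% of total small RNA (17.5 to 17.6) in susi-2. In the other strains the order was the reverse, with 10.8% in the IP against 20.0% in total RNA of susi-3 and 11.8% against 25.97% in the control. Antisense counts lay on 24018 genes in the susi-2 IP, against 15068 in total RNA. Of the larval microRNAs, lin-4 was present at 616 counts in the IP and 3906 in total RNA, and let-7 at 2076 in the IP and 43872 in total RNA. Embryonic microRNAs of the mir-35 to mir-42 group were also present, mir-35 at 1213 and 4773 counts in the IP and in total RNA. Fragments of the nrde-3 gene, which the transgene also carries, were abundant in the IP in the sense direction, at 35725 counts against 1146, a ratio of 35.8 (33.7 to 38.0), and antisense counts were 6920 against 1114, a ratio of 7.13 (6.69 to 7.60). The mutated susi-2 locus, known as rrp-8, a gene for an rRNA methyltransferase of the large subunit, had 31 sense counts in the IP against 10 in total RNA and 48 antisense counts against 16, too few to check the allele. Since the libraries come from whole animals, fewer cells that make a small RNA and less of it per cell cannot be told apart.

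Among the 12 feature classes of the files, 4 had an antisense share at least 2-fold higher in the IP than in total RNA and 2 at least 2-fold lower. Antisense tRNA counts were 7175 in the IP against 301 in total RNA, 27.4-fold higher (24.4 to 30.8). Antisense piRNA counts were 529 against 85 (7.14-fold, 5.67 to 9.09) and antisense microRNA counts 1038 against 224 (5.32-fold), so these classes were rare antisense in both libraries. The rRNA class as deposited held 1294231 antisense counts, 14.2% of the IP, against 477423, 4.56% of total RNA, a ratio of 3.11. Antisense counts on transposon genes ran the other way, at 16286 in the IP and 93833 in total RNA, a ratio of 0.199 (0.196 to 0.203). Antisense counts on the ncRNA class, short unclassified transcripts, were 111206 against 547972, a ratio of 0.233 (0.231 to 0.234). Protein-coding genes as a whole hardly differed, at 658936 antisense counts in the IP, 7.22% of the library, against 686955 in total RNA, 6.56% (ratio 1.101).

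The protein-coding ratio of the susi-2 strain stood apart from those of the other strains, which were 0.458 in susi-3 and 0.320 in the control. Small nuclear RNAs, the RNA parts of the spliceosome, also had their highest antisense ratio in susi-2, at 1.92 (1.80 to 2.05), against 0.0733 in susi-3 and 0.467 in the control. In the antisense column, tRNA was higher in the IP of each strain, at 27.4 in susi-2, 5.03 in susi-3 and 6.19 in the control. Transposons were lower in the IP of each strain, at 0.199, 0.0638 and 0.0778 in susi-2, susi-3 and control. None of these differences between strains could be tested with 1 library a group.

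**Figure D1:**
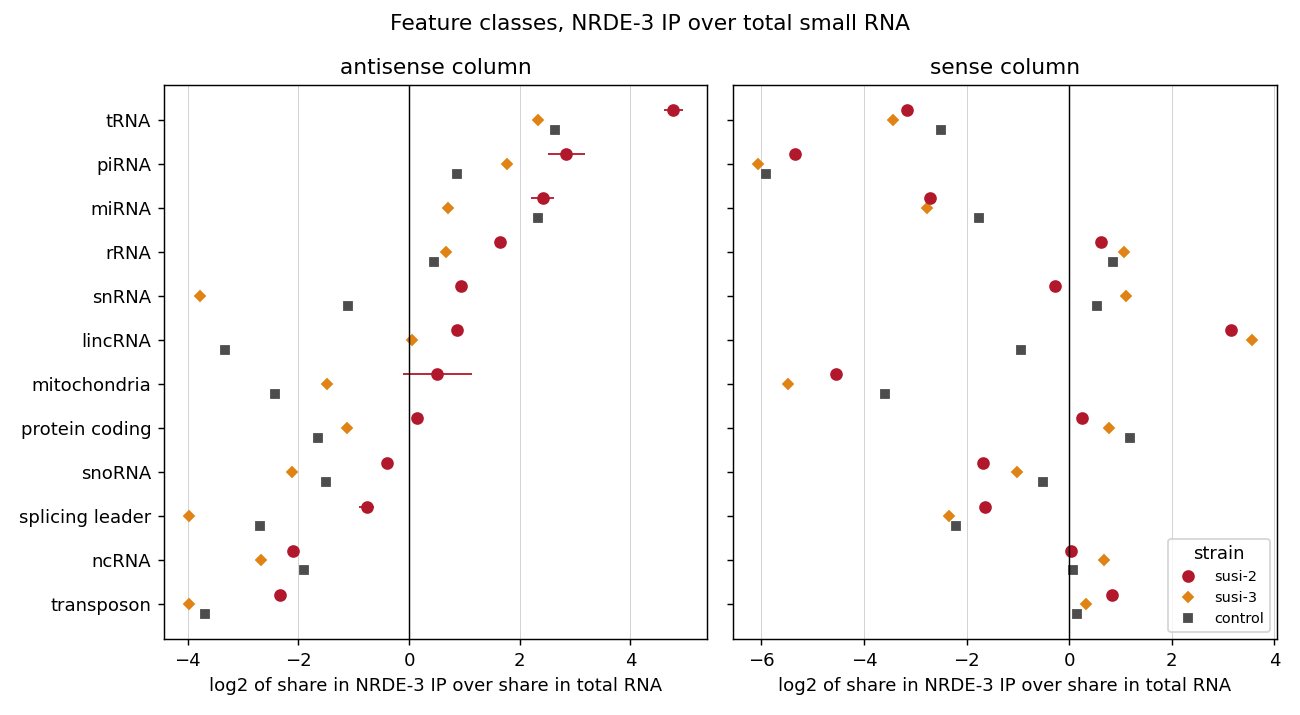
Log2 ratio of each class's share of all counts in the NRDE-3 IP over its share in total small RNA, for the antisense column on the left and the sense column on the right, in the susi-2, susi-3 and control strains, 1 pair of libraries each, with 95% counting intervals drawn for susi-2. With the columns as deposited, the tRNA class has the highest antisense ratio in susi-2 (27.4) and piRNAs the lowest sense ratio (0.0247). The rRNA class is drawn as deposited (3.11 antisense in susi-2), and with 7 features exchanged its ratio was 397.

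In the sense direction most structural and regulatory RNA classes were depleted in the IP. MicroRNAs, which are loaded on ALG-1 and ALG-2, made up 3.65% of the IP against 23.9% of total RNA (332520 against 2505935 counts, ratio 0.152, 0.152 to 0.153). These are sums over rows, and the rows T09B4.11 and T09B4.11b of mir-1 had near-equal counts (25532 and 25753 in the IP). Reads may thus be counted more than once, and the shares may be too high in both libraries. Sense piRNAs, the 21U-RNAs that the Piwi protein PRG-1 binds, had 949 counts against 44163, 40.5-fold more in total RNA. Fragments of mitochondrial genes had 15846 against 425818 counts (ratio 0.0427, 0.0420 to 0.0434), sense tRNA fragments 11479 against 117736 (0.112, 0.110 to 0.114) and snoRNA fragments 37463 against 137924 (0.312, 0.308 to 0.315). Sense rRNA fragments went against this, with 50.4% of all counts in the IP and 33.0% in total RNA, a ratio of 1.53 (1.53 to 1.53). Among snRNAs 1 feature decided the class value: M163.13 had 27411 sense counts in the IP against 26681 in total RNA, and the class ratio of 0.822 was 0.182 without it. The sense lincRNA ratio of 8.94 (8.47 to 9.44) likewise came from linc-110, at 9993 counts against 12, and was 1.24 without that gene. Sense piRNA, mitochondrial, microRNA and tRNA counts were lower in the IP of all 3 strains, with sense ratios of 0.0247, 0.0149 and 0.0167 for piRNAs in susi-2, susi-3 and control.

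Antisense rRNA was far more abundant in the IP than in total RNA. The 26S gene rrn-3.1 had 717187 antisense counts in the IP, 7.86% of the library, against 1214 in total RNA, 0.0116%, a ratio of 678 (641 to 718). The 18S genes rrn-1.1 and rrn-1.2 had 55364 against 253 counts, a ratio of 251 (222 to 285). Both belong to the precursor that RNA polymerase I transcribes, and the third member, 5.8S (rrn-2.1), had 9874 antisense counts against 170, a ratio of 66.7 (57.3 to 78.0). The 5S rRNA, made by RNA polymerase III from its own gene cluster, had 47539 against 614 counts over 13 copies, a ratio of 88.9 (82.1 to 96.4). The ratio was lower for 5S and 5.8S than for 26S and 18S. The 5S and 18S values are sums over gene copies that may count the same reads more than once. Their intervals may therefore be too narrow. For 18S, 5.8S and 26S together the ratio was 549 (523 to 576).

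The antisense share of the counts on each rRNA gives the same contrast without reference to library size. On 26S, 16.6% of counts were antisense in the IP (16.5 to 16.6), against 0.0561% in total RNA (0.0530 to 0.0594). On 18S the values were 7.39% and 0.0232%, and on 5.8S 31.9% and 0.348%. On 5S, antisense counts outnumbered sense counts in the IP, at 64.3% (63.95 to 64.6), against 0.406% in total RNA (0.374 to 0.439). The sense fragments of these genes had far smaller ratios of IP over total RNA, which were 1.92 (26S), 0.730 (18S), 0.496 (5.8S) and 0.201 (5S). Leaving out rrn-4.15 and rrn-4.16, which had few sense counts, 11 of the 5S copies each had between 3874 and 4072 antisense counts in the IP and between 43 and 58 in total RNA, and since the copies are near-identical these values do not count as separate observations.

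The antisense rRNA ratios were also above 1 for 26S and 18S in the other strains, but far lower. For 26S the ratio was 45.2 in susi-3 (18018 against 413 counts) and 13.98 in the control (3147 against 220). For 18S it was 12.9 in susi-3 and 10.2 in the control. For 5.8S the counts were 135 against 93 in susi-3, and for 5S the ratio was 1.89 there. In the control the ratios were 0.227 (5.8S) and 0.797 (5S). The log2 ratio of the precursor in susi-2 exceeded that in the control by 5.60 and that in susi-3 by 4.41, and with TMM scaling of each strain's libraries the differences were 3.46 and 2.44. The plot of antisense rRNA in the 6 libraries uses CPM, counts scaled to a library total of 1000000, and shows 26S at 78621, 1895 and 293 CPM in the IPs of susi-2, susi-3 and control, against 116, 42.0 and 20.9 in their total RNA.

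**Figure D2:**
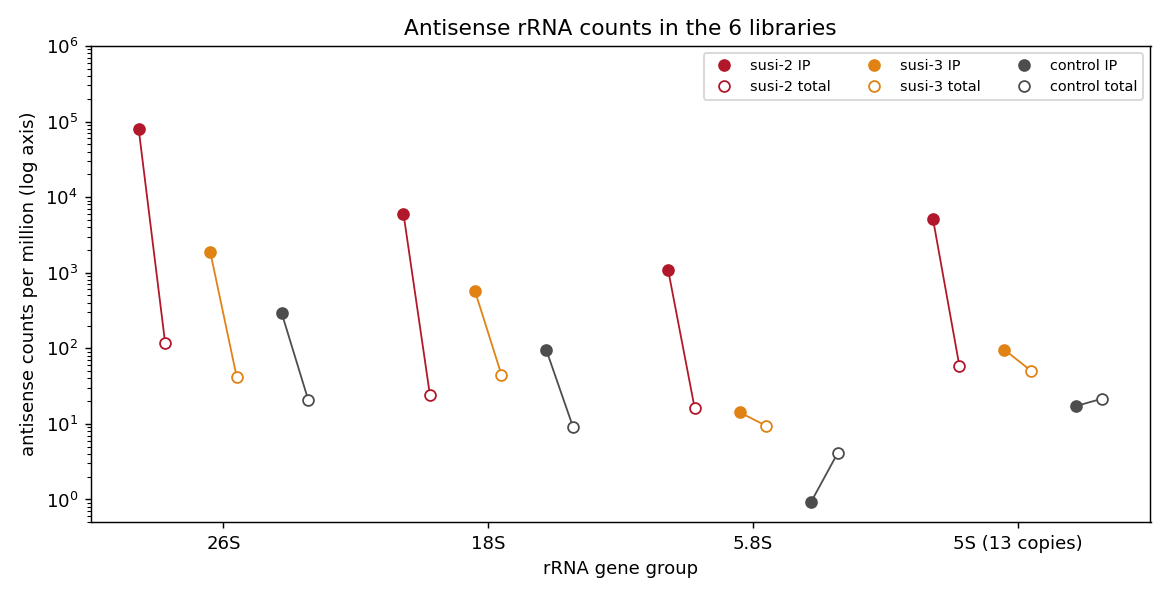
Antisense CPM on a log axis for 26S, 18S, 5.8S and 5S rRNA in the 6 libraries, with the IP as filled points to the left of total small RNA as open points and a line joining the pair of each strain. In susi-2 the 26S value is 78621 CPM in the IP and 116 in total RNA.

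For 7 features of the rRNA class the 2 columns appeared to be exchanged. They are 3 copies of 5S (rrn-4.4, rrn-4.3, rrn-4.2) and F31C3.13, F31C3.14, F31C3.15 and F31C3.16, which overlap the 18S and 26S genes or lie beside them. Nearly all of their total RNA counts stood in the antisense column. F31C3.14, which overlaps 26S in the RefSeq table, had 203664 counts in that column in the IP and 218558 in total RNA, and 145315 against 322 in its sense column, a ratio of 518 (464 to 580). Summed over the 4 F31C3 features the sense column held 215404 against 596 counts, 415-fold higher in the IP (383 to 450.3). These features carry most of the antisense counts of the class as deposited in total RNA, and with the 7 exchanged the antisense rRNA share was 11.8% of the IP against 0.0297% of total RNA, a ratio of 397 (384 to 412).

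Overlapping annotation also shapes the ncRNA class. Counted over genes whose main class is ncRNA (108407 antisense counts in the IP, 542738 in total RNA), 42.1% in the IP and 74.8% in total RNA lay on 35 genes that overlap a microRNA gene in RefSeq. The largest, T09B4.14, lies over mir-1, a muscle microRNA, and had 24679 antisense counts in the IP against 254012 in total RNA. Of the rows of mir-1, T09B4.11 had 25532 sense counts in the IP against 265131 in total RNA and T09B4.11b 25753 against 264175, near the antisense counts of T09B4.14 in each library, and T09B4.11a had 5 in each. F16A11.6 overlaps mir-71 (9672 against 65228 antisense counts), K01F9.6 overlaps mir-80 (1838 against 16805), K01F9.7 overlaps mir-90 (1787 against 27927) and ZK930.13 overlaps mir-45 (5245 against 24714). For ncRNA features that overlap no rRNA, tRNA, snoRNA, snRNA, microRNA or piRNA gene, the antisense ratio was 0.559 (0.554 to 0.565), against 0.233 for the class.

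Gene by gene, antisense counts were taken as log2 ratios of CPM with 1 CPM added, for the 5574 genes with at least 50 antisense counts over both libraries. The IP was higher by at least 2-fold for 1752 genes (31.4% of those tested) and lower by as much for 1767 (31.7%). The median log2 ratio was −0.09. Of the tested genes, 1414 had under 25 counts in total RNA and 1340 under 25 in the IP, and these entered through the library in which they were high. In the other strains the balance was tilted to lower values, with 632 genes (15%) higher and 2777 (65.8%) lower in susi-3 and 627 (11.9%) higher and 3739 (70.8%) lower in the control. Scaling to counts outside the rRNA class raised the susi-2 median to 0.59 and the split to 2340 higher and 1241 lower, so the count in each direction depends on how the rRNA is treated. Of the antisense counts on protein-coding genes, 50% fell on 708 genes in the IP and on 351 in total RNA, so the IP counts were spread over more genes.

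Outside the structural classes, the genes with the 8 highest antisense ratios and at least 200 counts were near-absent in total RNA. The long noncoding gene linc-133 had 9130 antisense counts in the IP and 1 in total RNA, a ratio of 10480.2 with an interval from 1881 upwards to 413990.0. This locus is shared: linc-133 overlaps linc-110 and T09A5.18, which had 9993 against 12 and 10089 against 0 sense counts, so these are near-equal counts over a locus annotated on both strands. The gene cup-16, named for defective uptake by coelomocytes, had 7871 against 0 counts, at least 3012-fold higher with 0 taken at 3 counts, and clec-72, a C-type lectin gene, had 19335 against 40 (ratio 555, 407 to 777). Of the others, ram-2, named for abnormal rays of the male tail, had 4890 against 3, H02F09.3 4141 against 6, F42C5.9 3040 against 3, vang-1, the planar polarity gene Van Gogh, 2607 against 1, and F32B5.2 1976 against 0 counts. All 8 were higher in the IP of the other strains too, with log2 ratios from 5.22 to 10.49 in susi-3 and from 1.02 to 10.39 in the control. F32B5.2 had 3499 against 0 counts in susi-3 and 11 against 0 in the control, where linc-133 had 311 against 0.

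**Figure D3:**
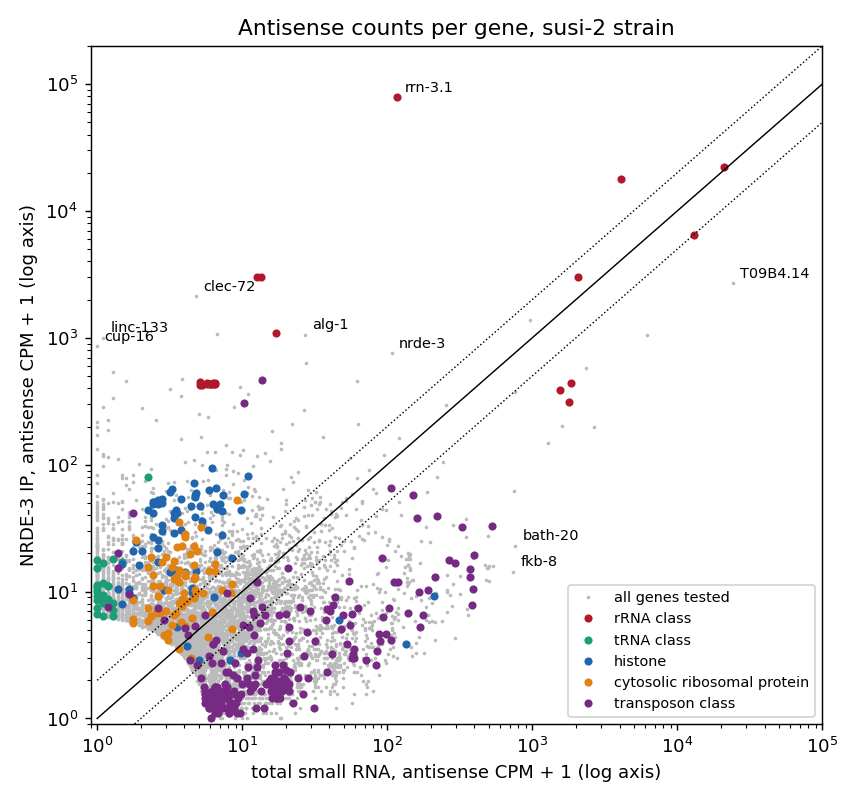
Antisense CPM plus 1 in total small RNA (horizontal, log axis) and in the NRDE-3 IP (vertical, log axis) for each of 5574 genes of the susi-2 strain, with the line of equality solid and 2-fold lines dotted. The 26S gene rrn-3.1 lies far above the line, alg-1 and clec-72 above it, and T09B4.14, bath-20 and fkb-8 below it.

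At the low end, Y53F4B.5 had 30 counts in the IP against 3085 in total RNA, a ratio of 0.0112 (0.00752 to 0.0160). The gene fkb-8, of the FK506-binding prolyl isomerase family, had 122 against 7751 (0.0181, 0.0150 to 0.0216), Y105E8A.28 50 against 3777, linc-29 57 against 3679 and the transposon-class gene Y102A5D.1 63 against 4011. R09H3.3 (21 against 1865), F59H6.14 (29 against 2234) and F16B4.6 (6 against 830) completed the 8 lowest, with log2 ratios from −6.11 to −5.60. F43E2.6 had the most antisense counts of any gene outside the structural classes in the IP apart from clec-72 and T09B4.14, and it differed little, at 12601 against 10046 (ratio 1.44).

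Histone, ribosomal protein and muscle genes had high antisense ratios in the IP. Of 81 histone genes, 75 were tested, and 65 of these passed 2-fold upwards and 5 downwards (median log2 ratio 2.98), beside 31.4% upwards and 31.7% downwards among all genes tested. Of the tested histone genes 28 had under 25 counts in total RNA, and over all 81 genes the sums were 21805 against 6628 counts, a ratio of 3.78 (3.67 to 3.88). The histone median was 0.45 in susi-3 and 2.08 in the control, where all genes tested had medians of −1.72 and −1.82. The histone genes lower in the IP were the linker histone genes his-24 (75 against 2177), hil-8 (26 against 1405), hil-3 (45 against 475) and hil-5 (17 against 76) and the H3 variant gene his-74 (21 against 92), and this grouping was seen after the values were known. Most of the other histone genes are copies in clusters that share sequence, so their counts are not independent. K06C4.11 had the highest ratio, at 454 against 15 counts.

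Cytosolic ribosomal protein genes were higher in 50 of 70 tested and lower in none by 2-fold, beside 31.4% higher and 31.7% lower among all genes. Of the 70, 24 had under 25 counts in total RNA, and of the 47 list members with 25 or more there 30 were higher. The list had a median log2 ratio of 1.45, against −0.04 in susi-3 and −0.19 in the control. The median of all genes tested was also higher in susi-2, at −0.09, against −1.72 in susi-3 and −1.82 in the control. Likewise the ratio of all antisense counts was 1.32 in susi-2, 0.538 in susi-3 and 0.454 in the control. Over all 81 genes matched by name, which include ubl-5, a ubiquitin-like gene of another kind, the antisense sums were 7733 against 2315 counts, a ratio of 3.83 (3.66 to 4.02), against 1.16 in susi-3 and 0.992 in the control. The stalk protein gene rla-0 had 223 against 9 counts, rps-30 313 against 28 and rpl-43 476 against 86. Their sense fragments went the other way, with 42 of 79 tested at least 2-fold lower and 8 higher (median −1.07, background 28.1% lower and 19.9% higher among all genes). The exceptions included rpl-27 (18976 against 1674 sense counts) and rpl-25.2 (9174 against 782).

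Body wall muscle genes had a median of 2.81 over 13 tested of 24, with 11 higher and none lower (31.4% and 31.7% among all genes), but 9 of the 13 had under 25 antisense counts in total RNA. The giant muscle protein genes unc-22 (twitchin, 377 against 7 counts), unc-52 (perlecan, 292 against 7) and unc-89 (obscurin, 280 against 15) were among them, and unc-54, the main body wall myosin, was not, at 98 against 159. Muscle genes were also high in the control, where their median was 2.53, and unc-54 had a log2 ratio of 3.43 there. The genes of ribosome production had a median of 0.01, with 6 of 31 higher and 5 lower, shares no higher than the 31.4% and 31.7% among all genes. Its 2 highest were ncl-1, a repressor of nucleolar size and rRNA synthesis (805 against 80, 11.55-fold, 9.17 to 14.7), and rpoa-1, the largest subunit of RNA polymerase I (1345 against 185, 8.35-fold, 7.15 to 9.79).

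**Figure D4:**
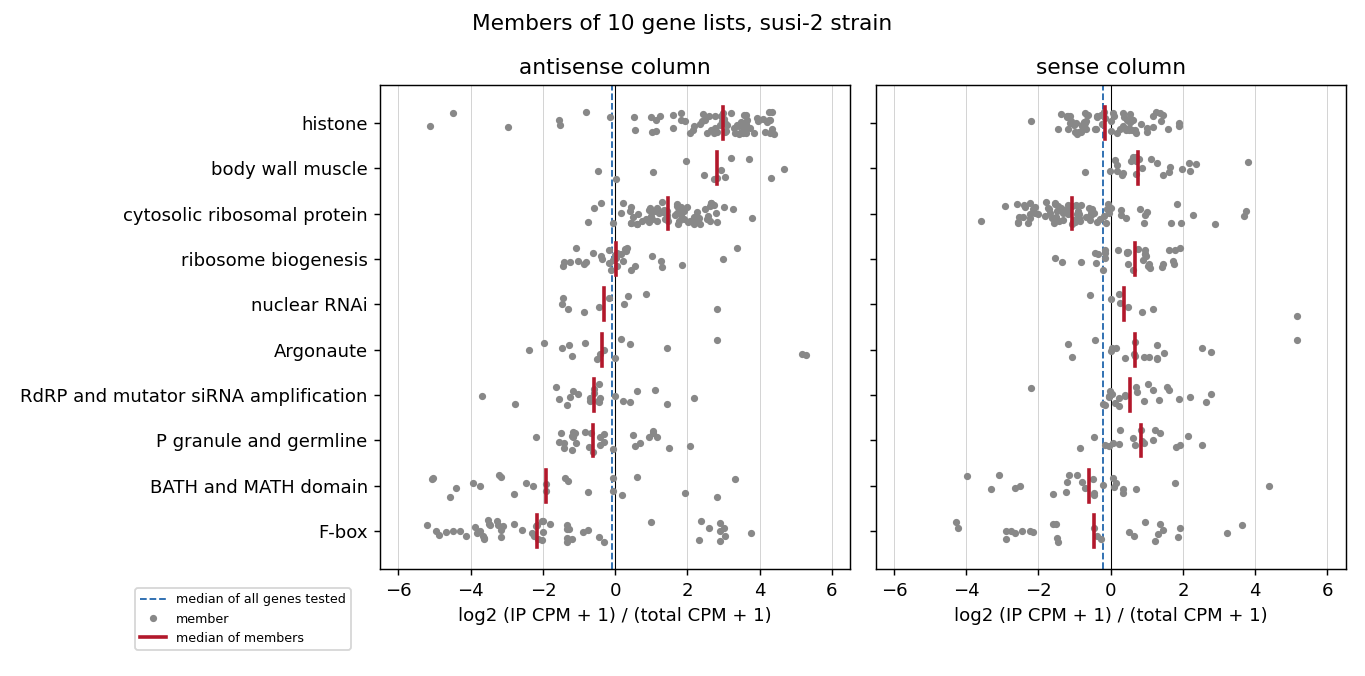
Log2 ratio of NRDE-3 IP over total small RNA in the susi-2 strain for each tested member of 10 gene lists, antisense on the left and sense on the right, with the median of the members as a red bar and the median of all genes tested as a dashed line. Histone, muscle and ribosomal protein genes lie mostly above the antisense line, and BATH and MATH domain and F-box genes mostly below it.

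Transposon, F-box and BATH and MATH genes had low antisense sums in the IP. In each of these lists most tested members passed the 50-count minimum through total RNA alone, where they are high, so the sums carry the comparison, and 31.7% of all genes tested were lower. Of 228 tested genes of the transposon class, 200 were lower by 2-fold or more and 9 higher (median −2.45), with under 25 IP counts for 152 of them, and T27C5.9 had 291 against 5534 counts. ZC132.5 of the same class was an exception, at 4245 against 134 counts (36.4-fold, 30.6 to 43.5), and it was high in the other strains as well. F-box genes, whose products choose proteins for degradation, were lower in 39 of 53 tested and higher in 9 (median −2.16), with under 25 IP counts for 29, and without a minimum the F-box median was 0.27. Genes with BATH and MATH domains, adaptors of another class of ubiquitin ligase, were lower in 15 of 23 and higher in 3 (median −1.93), with under 25 IP counts for 13, led by bath-20 (201 against 8004 counts) and bath-45 (137 against 5636). Over all F-box genes the sums were 4327 against 19358, a ratio of 0.257 (0.248 to 0.265), and over BATH and MATH genes 1354 against 17077, a ratio of 0.0910 (0.0861 to 0.0962). Most of the BATH and MATH counts in total RNA lay on bath-20 and bath-45, so that ratio mainly reflects these genes and not the whole list. Among 11 tested cuticle collagen genes 4 were higher and 6 lower, from col-19, an adult collagen gene (380 against 0), to col-60 (15 against 401). Among all genes 31.4% were higher and 31.7% lower. The 4 higher collagen genes each had under 25 counts in total RNA and passed the minimum through the IP. Of the collagen genes with 25 or more counts in total RNA, 0 were higher and 9 lower.

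Genes of the small RNA pathways carried antisense small RNA as well. Of 16 tested Argonaute genes 4 were higher in the IP and 5 lower, shares no higher than the 31.4% higher and 31.7% lower among all genes, so the count marks nothing about Argonaute genes as a group. The microRNA Argonaute genes alg-1 (9644 against 274 counts, 40.4-fold, 35.8 to 45.7) and alg-2 (446 against 4) and nrde-3 itself were the highest, with ergo-1 at 65 against 21. The germline Argonaute genes prg-1 (228 against 1066, ratio 0.246, 0.212 to 0.284) and hrde-1 (138 against 462, 0.343, 0.281 to 0.416) were among the lower ones. Of 23 tested genes for RNA-dependent RNA polymerases and mutator proteins, which amplify siRNAs, 3 were higher and 8 lower (median −0.58), the lower share being close to the 31.7% of all genes. The helicase gene eri-6, which acts in the ERGO-1 pathway, was the lowest, at 238 against 3666 counts (0.0745, 0.0651 to 0.0850). Of 10 nuclear RNAi genes 1, nrde-3, was higher and 3 were lower (median −0.30).

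Known targets of ERGO-1 siRNAs, the usual cargo of NRDE-3 when eri-1 is intact, were sparse, as 7 of 17 genes found had enough counts. Of the 7, 4 were higher in the IP and 2 lower (median log2 ratio 1.63), and the 4 that were higher each had under 25 counts in total RNA. Y43F8B.9 had 374 against 0 counts, at least 143-fold higher with 0 taken at 3 counts. In the other strains it had 18 against 1 (susi-3) and 6 against 1 (control). R06C1.4 had 170 against 115 antisense counts, a log2 ratio of 0.71, against −4.61 in susi-3 and −4.96 in the control. Germline and P granule genes had a median of −0.62, with 5 of 29 higher and 11 lower, the lower share being near the 31.7% of all genes. In the neuron list 3 of 4 tested were higher and 1 lower, beside 31.4% and 31.7% among all genes. Of the 3 neuron genes with 25 or more counts in total RNA, 2 were higher and 1 lower. Among the higher was unc-119, a neuronal gene in use as a transformation marker (1917 against 645 counts, 3.41-fold, 3.12 to 3.74). In the intestine list the genes higher in the IP (asp-1, vit-2 and vit-6) all had under 25 counts in total RNA and passed the minimum through the IP.

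Sense counts reached 50 over both libraries for 8655 genes, of which 1723 (19.9%) were higher by 2-fold or more in the IP and 2429 (28.1%) lower, around a median log2 ratio of −0.20. In susi-3 29.1% were higher and 24.5% lower, and in the control 43.7% higher and 17.2% lower. With CPM outside the rRNA class the susi-2 split was 3100 higher and 1378 lower. The highest ratios belonged to genes with few sense counts in total RNA. C07E3.3 had 20480 counts in the IP against 22 in total RNA (1069-fold, 706 to 1705), sdc-2, which brings the dosage compensation complex to the X chromosomes, 42249 against 94 (516-fold, 421 to 639), and tag-278 11038 against 32 (396-fold, 280.3 to 579). The early embryonic gene vet-1 had 3122 against 0 counts, at least 1195-fold higher with 0 taken at 3 counts, Y39B6A.25 1697 against 0 and R05D3.3 1572 against 1. With T09A5.18 and linc-110 these 8 were the highest outside the structural classes, and each was also higher in both other strains, with log2 ratios from 3.38 to 10.71. The lowest 8 outside the structural classes were all mitochondrial features, from 294 against 18014 counts for MTCE.12 to 8 against 2709 for MTCE.5, a ratio of 0.00339 (0.00146 to 0.00669).

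Sense fragments of muscle genes were higher in 10 of 24 members and lower in none (median 0.75), beside 19.9% and 28.1% among all genes. The myosin gene myo-3 had 8036 against 647 counts (14.3-fold, 13.2 to 15.5). Yolk protein genes of the intestine list were nearly absent in total RNA, with vit-6 at 162 against 0, vit-2 at 138 against 2 and vit-1 at 110 against 5 counts. With vit-3, vit-4 and vit-5, each at 0 in total RNA, these were the 6 members of that list higher by 2-fold, of 21 tested, and 7 others were lower. All 6 had under 25 counts in total RNA and passed the minimum through the IP. Of the 15 members with 25 or more there, 0 were higher and 7 lower, beside 19.9% and 28.1% among all genes. In the small RNA pathways nrde-3 led. The gene drh-3, a helicase of the siRNA-making complex, had 596 against 90 counts (7.60-fold), and prg-2, a relative of the Piwi gene annotated here as ncRNA, 109 against 13. Of 24 tested polymerase and mutator genes 9 were higher and 1 lower, beside 19.9% and 28.1% among all genes, and 6 of the 24 had under 25 counts in total RNA. The lower one was eri-6, at 59 against 353, which overlaps linc-104 and sosi-1. The log2 value of eri-6 sense counts was −2.22, and with only the transcript row that has most counts it was 1.08, so its direction depends on how rows are summed. The ribosome production list had 10 of 32 higher and 2 lower, beside 19.9% and 28.1% among all genes, with fibrillarin, fib-1, at 1528 against 459 counts (3.82-fold, 3.44 to 4.25). Germline genes were higher in 7 of 19 and lower in none, beside 19.9% and 28.1% among all genes. Of the 16 germline genes with 25 or more counts in total RNA, 4 were higher. The gene glp-1, the germline Notch receptor, had 348 against 82 counts.

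MicroRNAs were depleted unequally. Of the microRNAs tested, 107 (89.9%) were lower in the IP by 2-fold or more and 4 (3.36%) higher. Among all genes tested in the sense column, 28.1% were lower and 19.9% higher. The median log2 ratio of the tested microRNAs was −2.84. Of them, 39 had under 25 counts in the IP and passed the minimum through total RNA. The 5 with most counts were mir-1 (51290 against 529311), mir-48 (39176 against 220392), mir-81 (17420 against 193106), mir-228 (16416 against 176872) and mir-58a (25150 against 147560), with ratios between 0.104 and 0.204. These counts are summed over the rows of each microRNA, so a read may be counted more than once, as the near-equal rows of mir-1 show is possible. Among those with at least 500 counts, mir-790 (4250 against 980 counts, 4.98-fold, 4.64 to 5.34) and mir-87 (813 against 266, 3.51-fold, 3.05 to 4.04) were higher in the IP, and mir-52 (1515 against 1460) and mir-54 (2131 against 2893) nearly level. The lowest was mir-243, a microRNA known to load onto the Argonaute RDE-1 and to trigger siRNA production, at 64 against 10575 counts, a ratio of 0.00695 (0.00535 to 0.00888), followed by mir-1820 (78 against 6334), mir-355 (19 against 1747) and mir-62 (13 against 1252). Of the 13 stage microRNAs all were at least 2-fold lower, with let-7 at 0.0543 (0.0520 to 0.0568), mir-84 at 0.114 and mir-37 at 0.464. Of 361 tested tRNA genes 345 were lower and 1 higher, and each of the 173 piRNA and 35 mitochondrial features tested was lower, beside 28.1% of all genes. Under 25 counts in the IP stood on 259 of these tRNA genes, 171 of the piRNAs and 14 of the mitochondrial features, which passed the minimum through total RNA.

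Calls on the strands of a gene were compared for genes tested on both. Of 3728 genes tested on both strands, 1357 were antisense-higher in the IP, and of these 278 (20.5%) were also sense-higher and 281 (20.7%) sense-lower, beside 23.1% sense-higher and 16.2% sense-lower among all 3728. Of the 619 that were antisense-lower, 27.8% were sense-higher and 21.5% sense-lower. The signal recognition particle RNA feature srpr-2.2 was an extreme case, at 9722 against 60 antisense counts (186-fold, 144 to 244) and 802 against 24863 sense counts (0.0370, 0.0345 to 0.0397). The lectin gene clec-72 had 84 against 237 sense counts beside its high antisense ratio.

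In the antisense column, genes lower in the susi-2 IP were nearly all lower in the other strains as well, and genes higher in it less uniformly so. In the sense column the order was the reverse. The shares among all genes tested in those strains leaned the same way in each column, so the order by itself marks nothing about these genes. Of the 1767 antisense-lower genes, 1665 were tested in the control and 1557 (93.5%) were lower there, and 1556 of 1570 in susi-3. These shares stand beside the 70.8% (control) and 65.8% (susi-3) of all tested genes that were lower there. Of the 1752 antisense-higher genes, 1023 were tested in the control, of which 489 (47.8%) were higher and 139 at least 2-fold lower there. In susi-3, 589 of 1035 (56.9%) were higher and 87 lower, where 15% of all genes tested were higher, and in the control 11.9%. For the sense strand, 1387 of 1461 genes higher in susi-2 were higher in the control and 1357 of 1538 in susi-3, where 43.7% (control) and 29.1% (susi-3) of all tested genes were sense-higher. Of the sense-lower genes, 1021 of 2262 (45.1%) were lower in the control and 59 at least 2-fold higher there. In susi-3, 1587 of 2202 (72.1%) were lower and 8 higher. Sense-lower genes made up 17.2% (control) and 24.5% (susi-3) of all tested genes.

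**Figure D5:**
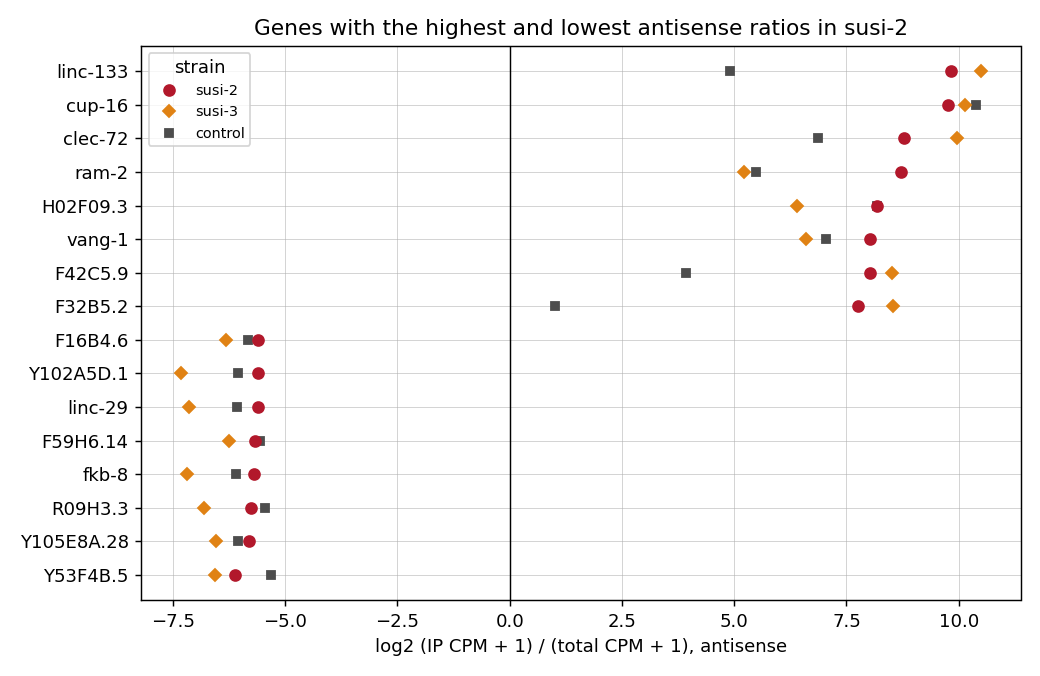
Antisense log2 ratio of NRDE-3 IP over total small RNA in the susi-2, susi-3 and control strains, 1 pair of libraries each, for the 8 genes with the highest and the 8 with the lowest ratio in susi-2. Only genes outside the structural classes with at least 200 counts were ranked. All 8 lowest genes lie between −7.31 and −5.31 in each strain, and the highest differ more, with F32B5.2 at 7.77 in susi-2, 8.53 in susi-3 and 1.02 in the control.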

How the data were processed

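The authors deposited 1 table per library with a sense and an antisense count of reads per annotated feature (56377 features), and these deposited counts are not normalized. Bowtie2 is named in the submitters' processing notes, and its version and settings, the genome build, the annotation release, the treatment of reads with several matches and any filter: not given in the sources used here. Near-equal counts on overlapping or identical features therefore cannot be told apart from shared reads. Features were summed by WBGene identifier to 45510 genes, of which 43622 matched the gene names table, and 3 features without a gene (122 counts at most per library) were left out; 5 blank cells were read as 0. The RefSeq table (WBcel235) served for names and for which genes overlap.

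Class shares, gene CPM (on all counts of both strands, 1 count being 0.110 CPM in the IP and 0.0955 in total RNA) and ratios were computed with Python 3.11.15, numpy 2.4.6, pandas 2.3.3 and scipy 1.17.1. Intervals are exact (Clopper-Pearson for shares, the exact conditional interval for ratios), at 95%, and take each count as a separate read. No test was made. Genes with at least 50 counts over both libraries were compared as log2((CPM + 1)/(CPM + 1)), which understates the change of low genes, and called at 2-fold; the calculation was tested on simulated data. A count of 0 was taken at 3 counts for a bound. Alternatives were TMM scaling (edgeR 4.0.16) and median-of-ratios scaling (DESeq2 1.42.0, both in R 4.3.3), other library sizes, pseudocounts, minimum counts and transcript rows.

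The 3 strains share no replicate libraries. The members and lists were chosen with earlier results of these data known. Genes named were the rRNA genes, the mutated and marker loci, the 8 highest and lowest ratios with at least 200 counts and the 6 with most counts per library outside rRNA, tRNA, snoRNA, snRNA, microRNA and piRNA, for each list the top 2 by mean CPM plus its extremes, the 5 microRNAs with most counts and the 4 highest and lowest with at least 500, and the stage microRNAs. Other list members named were chosen after their values were seen. Some list names found no gene (4 ERGO-1 targets, for example). No nucleotide sequences are given.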

Additional observations from a re-analysis of the deposited data

Results flagged for a closer look

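For several sums the IP lay above total RNA in susi-2 and below it in another strain, or the reverse. The difference between strains was not tested in any of these cases, since each ratio rests on 1 pair of libraries, and the chance that a pair differs by library alone was not measured. Differences are in log2 ratios of IP over total RNA with 1 CPM added to each, which lowers those of rare RNAs.

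Antisense counts on all genes had a log2 ratio of 0.40 in susi-2 and −1.14 in the control, a difference of 1.54. For protein-coding genes antisense it was 0.14 in susi-2, −1.13 in susi-3 and −1.64 in the control, differences of 1.26 and 1.78. For snRNAs antisense it was 0.94, −3.73 and −1.07 in susi-2, susi-3 and the control, differences of 4.67 and 2.00. In total RNA of susi-3 the snRNA class had 4602 antisense counts, against 519 in total RNA of the control. For lincRNAs antisense it was 0.86 in susi-2 and −3.32 in the control, a difference of 4.18, and for lincRNAs sense it was higher in susi-2 (ratio 8.94) than in the control (ratio 0.519), a difference of 4.09. These lincRNA values follow the linc-133 and linc-110 locus, whose removal left class ratios in susi-2 of 0.624 antisense and 1.24 sense. For snRNAs sense the ratios were 0.822 in the susi-2 strain and 2.14 in the susi-3 strain, a log2 difference of −1.38, and in susi-2 the value rests on M163.13.

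For 5.8S rRNA antisense the log2 ratio was 5.97 in susi-2 and −1.40 in the control, a difference of 7.37, with 10 IP counts against 43 in total RNA in the control. On plain ratios, without the added 1 CPM, the 5.8S difference was 8.20. For 5S over 13 copies it was 6.45 in susi-2 and −0.31 in the control, a difference of 6.76, with 185 against 227 counts in the control.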

How the results depend on the processing

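No paired analysis was possible because each group has 1 library and the labels give no replicate numbers, so no library could be left out either. Counts of genes past 2-fold depended on the minimum: without it (at least 1 count) 4889 antisense and 3541 sense genes were higher, and at 200 counts 494 and 758 were higher and 821 and 1115 lower, since fewer or more genes are then tested. With a pseudocount of 5 CPM, 1105 sense genes were higher and 1567 lower, and with CPM outside the rRNA class 3100 and 1378. Lists and classes with a median at 1 or more numbered 14 antisense and 2 sense, at −1 or less 5 and 14. With no minimum these were 8, 1, 1 and 9 (antisense high, antisense low, sense high, sense low), at 200 counts 6 antisense were high, with 5 CPM 3 antisense were low and 1 sense high, outside rRNA 8 sense were high and 9 low, and with 1 transcript row per gene 1 sense was high. Classes at least 2-fold higher sense numbered 1, against 3 outside the rRNA sense column, 2 with TMM and 0 without each class's largest gene, and 1 antisense class was lower, not 2, once overlapping ncRNA features were left out (chosen after seeing the data).

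The rRNA antisense ratio (precursor), 549, was 742 outside the rRNA sense column, 414 within the strand, 618 with TMM and 473 with the 7 exchanged features added (chosen after seeing the data). Its log2 difference between susi-2 and the control, 5.60 on plain ratios, was 3.46 with TMM in each strain, and that between susi-2 and susi-3, 4.41, was 2.44 with TMM and 4.27 outside rRNA. TMM moved the median of all genes in susi-2 by about 0.14 antisense (to 0.05) and to −0.01 sense.

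With no minimum the antisense medians of F-box (0.27), cuticle collagen (0.73) and ncRNA (0.15) genes and the sense medians of ERGO-1 targets (0.28) and sperm proteins (0.15) changed sign, as did the sense ncRNA median at 200 counts (−0.45) and eri-6 sense with 1 transcript row (1.08); the cause was not tested. No other list median or named gene past 2-fold changed sign under the alternatives run, and no class or rRNA ratio did. Depth limits the low end: 3 counts are 0.329 CPM in the IP and 0.287 in total RNA.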
